A study of Mus musculus with 4 samples.

Results

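The Tet dioxygenase genes Tet1, Tet2 and Tet3 encode the enzymes that form 5-hydroxymethylcytosine (5hmC), and their own 5hmC was measured in mouse neural progenitor cells (NPC) and in the embryonic stem cells (ESC) from which these were made. The 3 members were chosen by name, and each was taken as its mm9 gene span with 5 kb added on each side. They covered 64 tiles of 5 kb, of which 63 had enough input reads to be kept, out of 476819 kept tiles in the genome. The NPC were rosette-like, Sox1-GFP-positive cells collected on day 9 of monolayer differentiation in N2B27 medium. The ESC were 46C cells grown with 10% fetal bovine serum and leukemia inhibitory factor at 1000 U/ml. 46C is a single ESC line that carries a GFP reporter of Sox1, an early neural gene, and the NPC descend from it. Both cell types were of strain 129/Ola and had received no siRNA or shRNA. Each cell type gave 1 library of DNA bound by a 5hmC antibody and 1 input library, with no replicates. Only genomic DNA was sequenced, so that neither the cell types nor the expression of the Tet genes could be checked against RNA markers.

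TET proteins are dioxygenases that use iron and 2-oxoglutarate to oxidise the methyl group of 5-methylcytosine. The first product is 5hmC, and further rounds yield forms that base excision repair can replace with unmodified cytosine. In mouse ESC, Tet1 and Tet2 are known as the expressed family members, while Tet3 is known for its roles in the zygote and in neural cells. TET1 and the long form of TET3 carry a CXXC domain that binds CpG-rich DNA. TET2 lacks it, and the CXXC part of its ancestral gene is now the separate gene Cxxc4, which is the next protein-coding gene on the 5′ side of Tet2 in RefSeq. The corresponding neighbours are Slc25a16 (5′ side) and Ccar1 (3′ side) for Tet1, Ppa2 (3′ side) for Tet2, and Dguok (5′ side) and Bola3 (3′ side) for Tet3.

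All 3 genes lie on the minus strand, so that their 5′ ends have the higher coordinates. 5hmC in these cells lies mainly at CpG, and the RefSeq promoters of the genes (build GRCm38.p6, 250 bases before to 50 bases after the start) are shown because they differ greatly in CpG content. CpG is in capitals, and the sequences run 5′ to 3′ on the minus strand, from chr10:62887275-62887574 for Tet1, chr3:133544341-133544640 for Tet2 and chr6:83441629-83441928 for Tet3.
Tet1: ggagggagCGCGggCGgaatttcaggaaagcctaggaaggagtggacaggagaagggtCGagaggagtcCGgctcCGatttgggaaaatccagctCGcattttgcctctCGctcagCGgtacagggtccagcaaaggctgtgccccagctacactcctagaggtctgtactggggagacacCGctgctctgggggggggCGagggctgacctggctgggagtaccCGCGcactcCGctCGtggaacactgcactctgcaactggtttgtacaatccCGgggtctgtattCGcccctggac
Tet2: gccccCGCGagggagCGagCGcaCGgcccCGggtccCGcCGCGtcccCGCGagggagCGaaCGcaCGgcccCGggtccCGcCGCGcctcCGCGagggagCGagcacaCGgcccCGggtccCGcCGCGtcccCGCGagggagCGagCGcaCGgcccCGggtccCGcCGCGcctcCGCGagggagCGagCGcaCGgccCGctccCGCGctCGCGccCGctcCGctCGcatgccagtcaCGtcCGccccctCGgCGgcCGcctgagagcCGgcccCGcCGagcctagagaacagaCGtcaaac
Tet3: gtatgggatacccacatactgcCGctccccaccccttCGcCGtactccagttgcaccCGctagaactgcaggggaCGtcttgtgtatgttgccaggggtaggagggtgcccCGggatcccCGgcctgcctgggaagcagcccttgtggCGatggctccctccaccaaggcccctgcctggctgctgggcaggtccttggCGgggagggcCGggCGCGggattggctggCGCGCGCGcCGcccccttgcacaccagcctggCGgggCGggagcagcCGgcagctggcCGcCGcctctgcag
The Tet1 promoter held 17 CpG, the Tet2 promoter 57 and the Tet3 promoter 22, against a median of 7 over 32851 mouse promoters of the same length. The motif CG reads the same on both strands, and 94.6% of those promoters held it at least once. At least as many CpG as in Tet2 were found in 0.152% of promoters, as many as in Tet3 in 23.1% and as many as in Tet1 in 31.4%. These promoters carry coordinates of another build than the reads and were not placed on the read positions. The 5′ end of a gene span need not be the start site used in these cells.

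Both cell types were immunoprecipitated together in a single tube after barcoding, so that 5hmC reads per input read can be compared between them. Distinct reads on the autosomes and chromosome X numbered 1742680 in the NPC 5hmC library and 6588254 in the NPC input, against 7123491 in the ESC 5hmC library and 5059243 in the ESC input. Genome-wide, NPC had 0.265 5hmC reads per input read and ESC 1.41, an NPC/ESC ratio of 0.188. Levels of a region are given below relative to these genome-wide values, so that 1 is the average of that cell type. All intervals are 95% intervals of counting error only, since the spread between cultures is unknown and PCR copies are not independent molecules. No test between conditions is possible with 1 library per group.

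The first comparison asked how 5hmC over the Tet genes differed between NPC and ESC. It was lower in NPC at each gene, by more than the genome-wide difference. Over Tet1 (chromosome 10, 62262001 to 62377000), NPC gave 108 5hmC reads for 411 of input, against 818 for 329 in ESC. The NPC/ESC ratio was 0.106 (0.0818 to 0.136), so that ESC had 9.46 times as much 5hmC per input (7.34 to 12.2). Over Tet2 (chromosome 3, 133121001 to 133214000), NPC gave 63 5hmC reads for 248 of input and ESC 457 for 195. This gave a ratio of 0.108 (0.0772 to 0.151) and a 9.23-fold difference (6.61 to 13.0). Tet2 was the most thinly covered of the 3 genes, and its intervals are the widest. Over Tet3 (chromosome 6, 83307001 to 83415000), NPC gave 151 5hmC reads for 459 of input, against 976 for 364 in ESC. Its ratio was 0.123 (0.0978 to 0.154), an 8.15-fold difference (6.51 to 10.2). All 3 intervals lay below the genome-wide ratio of 0.188, which corresponds to 5.32-fold. Summed over the 3 genes, the ratio was 0.114 (0.0982 to 0.132). These ratios depend on the background. As an alternative, 0.144 5hmC reads per input read, the NPC level of the tiles poorest in ESC 5hmC, was subtracted from both cell types. The ratios were then 0.0505 at Tet1, 0.0498 at Tet2 and 0.0727 at Tet3. Such a subtraction lowers the genome-wide ratio too, and that value was not computed. The subtracted ratios therefore cannot be set against 0.188.

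The stronger difference went with ESC levels above the genome average and NPC levels near it. In NPC the level was 0.993 of the genome-wide one at Tet1 (0.796 to 1.23), 0.960 at Tet2 (0.716 to 1.27) and 1.24 at Tet3 (1.03 to 1.50). In ESC it was 1.77 at Tet1 (1.55 to 2.01), 1.66 at Tet2 (1.40 to 1.98) and 1.90 at Tet3 (1.69 to 2.15). Tet3 was thus the gene whose NPC interval lay above the NPC average, and all 3 genes lay above the ESC average.

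The order of the levels was Tet3, Tet1, Tet2 in both cell types, but no neighbours in that order were apart beyond counting error. Among the 3 pairs compared, the Tet1 level over the Tet2 level was 1.03 in NPC (0.721 to 1.49) and 1.06 in ESC (0.854 to 1.32). Tet1 over Tet3 gave 0.799 in NPC (0.597 to 1.07) and 0.927 in ESC (0.775 to 1.11). Tet2 over Tet3 gave 0.772 in NPC (0.544 to 1.09) and 0.874 in ESC (0.708 to 1.08). The NPC/ESC ratios of these pairs differed by factors of 0.975 (0.649 to 1.47), 0.861 (0.619 to 1.20) and 0.883 (0.598 to 1.31). The depth would have left differences inside these intervals undetected.

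Each gene was then set beside all 24914 sufficiently covered 100 kb windows of the genome. In NPC, 64.4% of windows had a lower level than Tet1, 60.5% than Tet2 and 84.3% than Tet3. In ESC these shares were 90.7% for Tet1, 88.6% for Tet2 and 93.0% for Tet3. The median window itself lay below the genome-wide level, at 0.879 of it in NPC and 0.594 in ESC. The genes therefore stood among the 5hmC-richer windows in ESC, and Tet1 and Tet2 nearer the middle in NPC. The median window had an NPC/ESC ratio of 0.274, and 6.41%, 7.08% and 11.4% of windows had a lower ratio than Tet1, Tet2 and Tet3. Since the ESC level enters the ratio, each gene was also set beside windows of like ESC level. In the 1570 windows with an ESC level within 10% of that of Tet1, the median ratio was 0.126, and 24.9% lay below Tet1. For Tet2 the median of 1714 such windows was 0.130, with 25.0% below the gene. For Tet3 the median of 1316 windows was 0.123, with 49.7% below it. Among windows of like ESC level, the ratios of the Tet genes were therefore unexceptional.

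**Figure D1:**
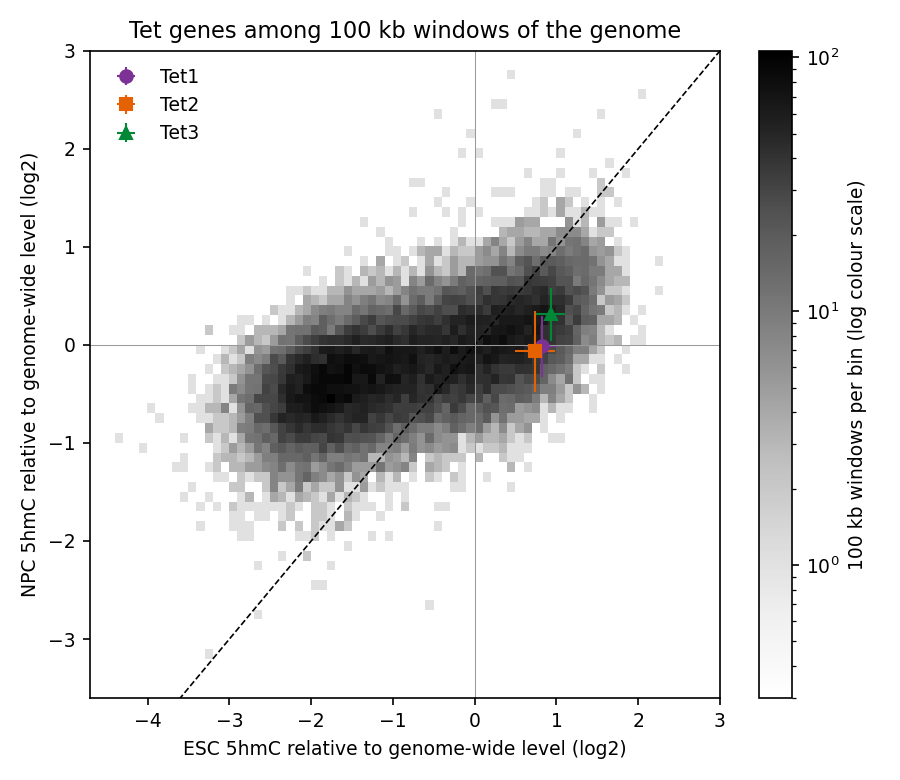
5hmC in NPC (y axis) against ESC (x axis), each as log2 of the level relative to the genome-wide level, for 24914 windows of 100 kb (grey, darker where more windows fall) and for Tet1, Tet2 and Tet3 with 95% counting intervals; the dashed line marks equal relative levels. All 3 genes lie right of the vertical zero line, at 1.77, 1.66 and 1.90 times the ESC average, while Tet1 and Tet2 lie at the NPC average.

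Along the genes, ESC 5hmC was concentrated at the 3′ end, and NPC 5hmC was not. Each span was divided into 5 equal parts, from part 1 at the 5′ end to part 5 at the 3′ end (21 kb each in Tet1, 16.6 kb in Tet2 and 19.6 kb in Tet3). In part 5 of Tet1, NPC had 23 5hmC reads over 80 of input, against 281 over 62 in ESC, or 1.09 and 3.22 times the genome-wide level (0.652 to 1.75 in NPC, 2.44 to 4.31 in ESC). Part 5 of Tet2 held 7 over 46 in NPC, against 132 over 34 in ESC, or 0.575 (0.219 to 1.28) and 2.76 times (1.88 to 4.15). Part 5 of Tet3 held 19 over 99 in NPC, against 379 over 76 in ESC, or 0.726 (0.419 to 1.19) and 3.54 times (2.76 to 4.59). In ESC, part 5 was the highest of the 5 parts in each gene, whereas no NPC interval of part 5 excluded the NPC average.

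The share of reads that fell in part 5 restates these levels from the same reads. Of the reads within the spans, summed over the 3 genes, part 5 held 16.8% of the NPC 5hmC reads and 22.2% of the NPC input, against 38.7% of the ESC 5hmC reads and 21.3% of the ESC input. The NPC level of part 5 over parts 1 to 4 was 1.10 in Tet1 (0.616 to 1.89), 0.548 in Tet2 (0.197 to 1.33) and 0.524 in Tet3 (0.290 to 0.911). In ESC the same quotient was 2.31 in Tet1 (1.67 to 3.22), 2.09 in Tet2 (1.34 to 3.31) and 2.44 in Tet3 (1.81 to 3.30). This quotient was chosen after the values of the parts had been seen, and its intervals are not adjusted for that choice. It also leaned on 1 tile per gene. Without the tile richest in ESC 5hmC, the ESC quotient was 1.62 in Tet1 (1.13 to 2.35), 1.61 in Tet2 (0.963 to 2.77) and 1.42 in Tet3 (1.01 to 2.03). That tile was picked as the highest and lay in part 5 or across its 3′ edge. A fall was thus fixed in advance, and only its size is given by the data. No tile was left out of parts 1 to 4.

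**Figure D2:**
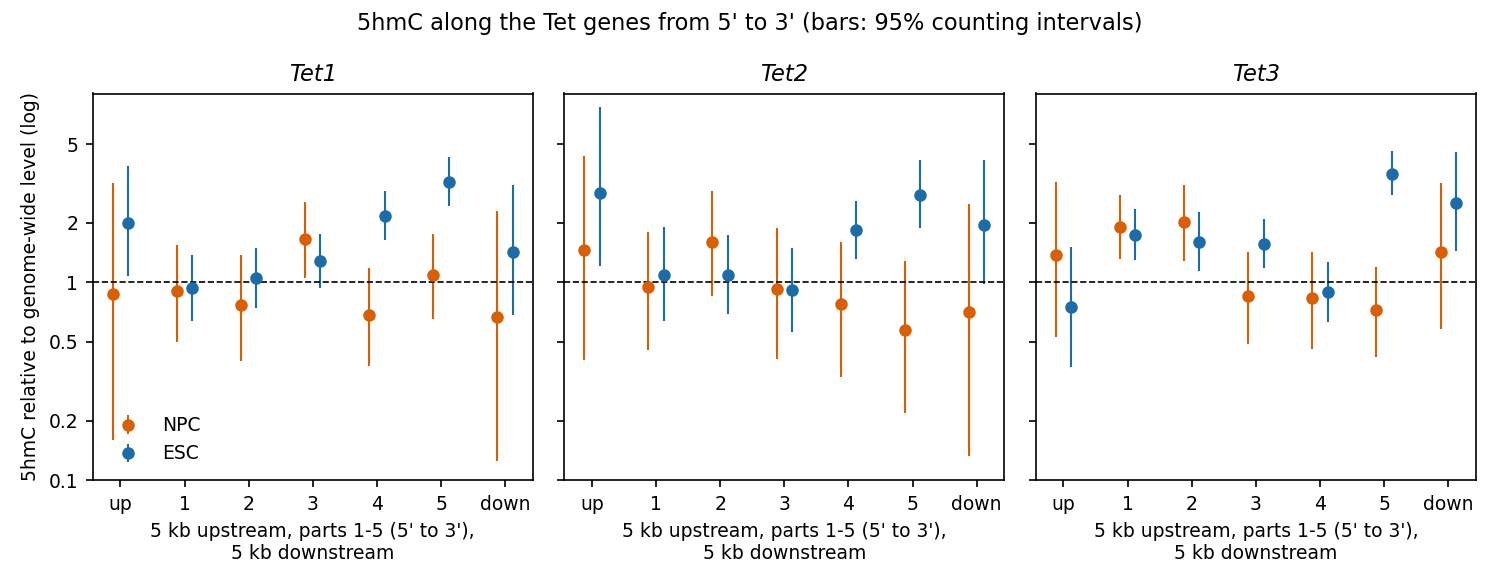
5hmC relative to the genome-wide level of each cell type (y axis, log scale) in NPC (orange) and ESC (blue) from 5′ to 3′ along Tet1, Tet2 and Tet3: 5 kb upstream, parts 1 to 5 of the gene span, and 5 kb downstream. Bars are 95% counting intervals and the dashed line is the genome-wide level; ESC reach 3.22, 2.76 and 3.54 in part 5, where NPC lie at 1.09, 0.575 and 0.726.

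The NPC/ESC ratio was lowest in part 5 of Tet2 and Tet3, and in parts 4 and 5 of Tet1. It was 0.0634 in part 5 of Tet1 (0.0354 to 0.112), 0.0392 in part 5 of Tet2 (0.0140 to 0.0992) and 0.0385 in part 5 of Tet3 (0.0211 to 0.0683). In part 4 it was 0.0597 in Tet1 (0.0307 to 0.112), 0.0794 in Tet2 (0.0321 to 0.181) and 0.175 in Tet3 (0.0885 to 0.339). In part 1 it was 0.181 in Tet1 (0.0895 to 0.360), 0.162 in Tet2 (0.0655 to 0.392) and 0.207 in Tet3 (0.128 to 0.333), close to the genome-wide 0.188. The ratio in part 5 over that in parts 1 to 4 was 0.474 in Tet1 (0.257 to 0.876), 0.263 in Tet2 (0.101 to 0.685) and 0.215 in Tet3 (0.117 to 0.395). Without the tile richest in ESC 5hmC it was 0.662 in Tet1 (0.336 to 1.30), 0.360 in Tet2 (0.118 to 1.10) and 0.210 in Tet3 (0.0916 to 0.483), so that the interval then excluded 1 in Tet3 alone.

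**Figure D3:**
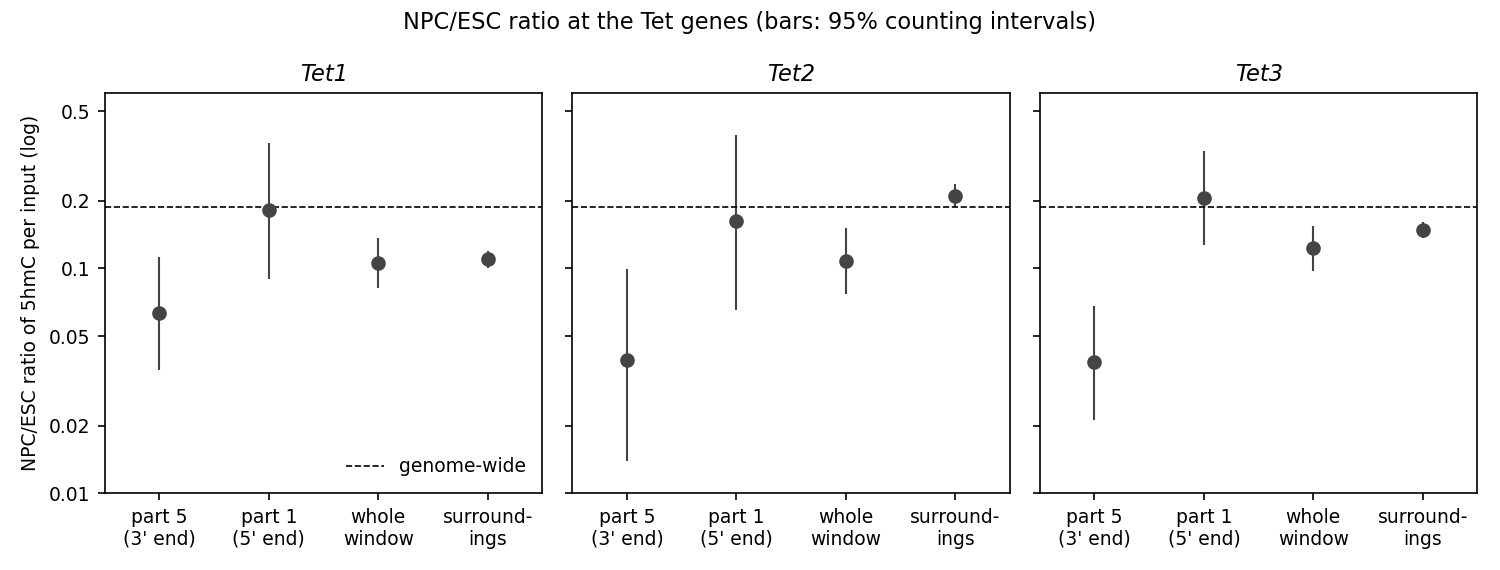
NPC/ESC ratio of 5hmC per input (y axis, log scale) in part 5, part 1, the whole window of each Tet gene and its surroundings (500 kb on each side), with 95% counting intervals; the dashed line is the genome-wide ratio of 0.188. Part 5 lies at 0.0634, 0.0392 and 0.0385, and the surroundings of Tet2 at 0.211.

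Tet3 had a further pattern at its 5′ end, where NPC 5hmC was above average. In NPC, part 1 of Tet3 held 46 5hmC reads over 91 input reads, or 1.91 times the genome-wide level (1.31 to 2.75), and part 2 held 33 over 62, or 2.01 times (1.28 to 3.12). In ESC these parts stood at 1.74 (1.30 to 2.35) and 1.60 times (1.14 to 2.26). NPC 5hmC in parts 1 and 2 was 2.44 times that in parts 3 to 5 (1.61 to 3.71), against 0.805 times in ESC (0.613 to 1.06). The same quotient was 0.752 in NPC (0.453 to 1.23) and 0.452 in ESC (0.334 to 0.615) for Tet1, and 1.66 in NPC (0.877 to 3.15) and 0.590 in ESC (0.391 to 0.893) for Tet2. The NPC quotient over the ESC quotient was 3.03 in Tet3 (1.88 to 4.89), 2.82 in Tet2 (1.38 to 5.74) and 1.66 in Tet1 (0.954 to 2.89). In this last quotient Tet2 was near Tet3, but the interval of its NPC quotient included 1, and that of Tet3 did not. In Tet2, parts 1 and 2 held 12 and 17 NPC 5hmC reads. The single tile from 133175001 to 133180000, mostly in part 2, held 14. The quotient of Tet2 without that tile was not computed. The NPC 5hmC of Tet3 lay toward the 5′ end while its ESC 5hmC was highest at the 3′ end. This division of the gene was also chosen after the parts had been seen.

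Tiles of 5 kb gave a finer view at lower depth. Enriched tiles were those with 10 or more 5hmC reads and 2 times the genome-wide level or more, each cell type being set against its own input. In NPC, 1 of 23 kept tiles was enriched in Tet1, 1 of 18 in Tet2 and 5 of 22 in Tet3. This made 11.1% of the Tet tiles, against 5.82% of all tiles in the genome. That excess was sensitive to the minimum of 10 reads. Without a minimum, 2 tiles were enriched in Tet1, 1 in Tet2 and 5 in Tet3, where the share of all tiles was 14%. Kept Tet tiles were also better covered, with 18.0 NPC input reads on average against 13.7 over all kept tiles. In ESC, 6 tiles were enriched in Tet1, 4 in Tet2 and 6 in Tet3, or 25.4% of the Tet tiles against 10.6% of all tiles. Both cell types were enriched in 2 tiles, both in Tet3, where 2.18% is the share over all tiles. The remaining tile, in Tet2, had 2 input reads in all and was left out.

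The position of these tiles followed the parts, less clearly so for the ESC-enriched tiles of Tet3. All 5 NPC-enriched tiles of Tet3 lay in its first 2 parts, which held 8 tiles. That count of 5 was sensitive to the rule, with 3 tiles on a grid shifted by 2500 bp, 2 at a 3-fold level and 0 at a minimum of 20 reads, where the shares of all tiles were 5.78%, 3.02% and 1.04%. The ESC-enriched tiles lay in parts 4 and 5 in 5 of 6 cases in Tet1, 3 of 4 in Tet2 and 3 of 6 in Tet3. Those parts held 9 of the 23 kept tiles of Tet1, 6 of the 18 of Tet2 and 8 of the 22 of Tet3. Of the other ESC-enriched tiles of Tet3, 2 lay in parts 1 and 2 and 1 in part 3. The longest ESC run was 15 kb in Tet3, formed by 3 tiles at its 3′ end, and 10 kb in both other genes.

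Every one of the 63 kept Tet tiles had an NPC/ESC ratio below 1, where 85.1% is the share over all tiles of the genome. The ratio lay below the genome-wide one in 37 of 63, against 36.4% of all tiles. Kept Tet tiles were better covered and richer in ESC 5hmC, with 35.6 ESC 5hmC reads on average against 14.9 over all kept tiles. Neither share was set beside tiles of like coverage and ESC level. Of the 21 Tet tiles enriched in either cell type, 18 were at least 2-fold lower in NPC, against 84.8% of all such tiles, so that this share is that of the genome. Relative to the genome-wide ratio, 10 of the 21 lay at least 2-fold below it, against 41.9% of all such tiles, and 3 lay at least 2-fold above it, against 21.0%.

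The tiles richest in ESC 5hmC ranked high in the genome in ESC, and their NPC levels were not apart from the NPC average beyond counting error. In Tet3 this was the tile from 83315001 to 83320000, where NPC had 11 5hmC reads over 26 of input, against 210 over 18 in ESC. It stood at 1.60 times the NPC average (0.713 to 3.35) and 8.29 times the ESC average (5.12 to 14.3), above 79.8% of all tiles in NPC and 99.9% in ESC, and its NPC/ESC ratio was 0.0363 (0.0140 to 0.0920). In Tet1 the tile from 62275001 to 62280000 held 5 over 16 in NPC, against 119 over 11 in ESC. That was 1.18 times the NPC average (0.338 to 3.37) and 7.68 times the ESC average (4.14 to 15.8), with a ratio of 0.0289 (0.00722 to 0.106). In Tet2 the tile from 133125001 to 133130000 held 3 over 20 in NPC, against 71 over 10 in ESC, or 0.567 times the NPC average (0.108 to 1.91) and 5.04 times the ESC average (2.59 to 11.0). All 3 tiles lay in part 5 or across its 3′ edge. They were picked as the highest of their gene among tiles with at least 5 reads in each input, and the intervals make no allowance for this. A tile upstream of Tet2, from 133210001 to 133215000, reached 5.50 times the ESC average with 4 ESC input reads (1.95 to 21.5), and its NPC level was 1.11 (0.321 to 3.14).

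The tiles richest in NPC 5hmC lay elsewhere. In Tet2 the tile from 133175001 to 133180000 held 14 5hmC reads over 8 of input in NPC, against 28 over 12 in ESC. It stood at 6.62 times the NPC average (2.59 to 18.2), and its NPC/ESC ratio was 0.750 (0.220 to 2.65). In Tet1 the tile from 62315001 to 62320000 held 12 over 11 in NPC, against 28 over 13 in ESC, with a ratio of 0.506 (0.156 to 1.65). In Tet3 the tile from 83370001 to 83375000 held 10 over 11 in NPC, against 21 over 13 in ESC, with a ratio of 0.563 (0.163 to 1.94). All 3 intervals included 1. The tiles were picked as the richest of their gene in NPC, and those of Tet2 and Tet3 also had its highest ratio. The intervals make no allowance for this, so that they cannot be held against the genome-wide ratio of 0.188. The highest ratio in Tet1, 0.750, was shared by 2 adjacent tiles poor in ESC 5hmC. The tile from 62345001 to 62350000 held 3 over 16 in NPC and 4 over 16 in ESC, at 0.709 of the NPC average (0.132 to 2.48) and 0.178 of the ESC average (0.0432 to 0.550). The tile from 62350001 to 62355000 held 3 over 12 in NPC and 3 over 9 in ESC, at 0.945 of the NPC average and 0.237 of the ESC average (0.0412 to 0.949).

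The lowest ratio in Tet3 was in the tile from 83320001 to 83325000, next to the richest one, with 1 NPC 5hmC read over 31 of input, against 81 over 18 in ESC. Its ratio was 0.00717 (0.000174 to 0.0509). In Tet1 the tile from 62300001 to 62305000 had a ratio of 0.0247 (0.00451 to 0.0964), from 3 over 27 in NPC and 81 over 18 in ESC. In Tet2 the tile from 133200001 to 133205000 had no NPC 5hmC read beside 16 of input, against 25 over 10 in ESC, so that only an upper limit of 0.136 can be given. With so few NPC reads, single tiles cannot be ordered by their ratio.

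The tiles at the 5′ end of the spans held few NPC 5hmC reads, and the intervals of the 3 genes overlapped in each cell type. At Tet3 the 5 kb tile that starts at 83405001 held 10 over 16 in NPC, against 24 over 13 in ESC, or 2.36 (0.959 to 5.54) and 1.31 times the averages (0.642 to 2.80). At Tet2, from 133205001 to 133210000, NPC had 5 over 12 and ESC 6 over 10, or 1.58 (0.435 to 4.80) and 0.426 times (0.127 to 1.29). At Tet1, from 62370001 to 62375000, NPC had 2 over 14 and ESC 26 over 14, or 0.540 (0.0596 to 2.35) and 1.32 times (0.664 to 2.73). None of these intervals excluded the average, although the Tet3 tile met the rule for enrichment in NPC.

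**Figure D4:**
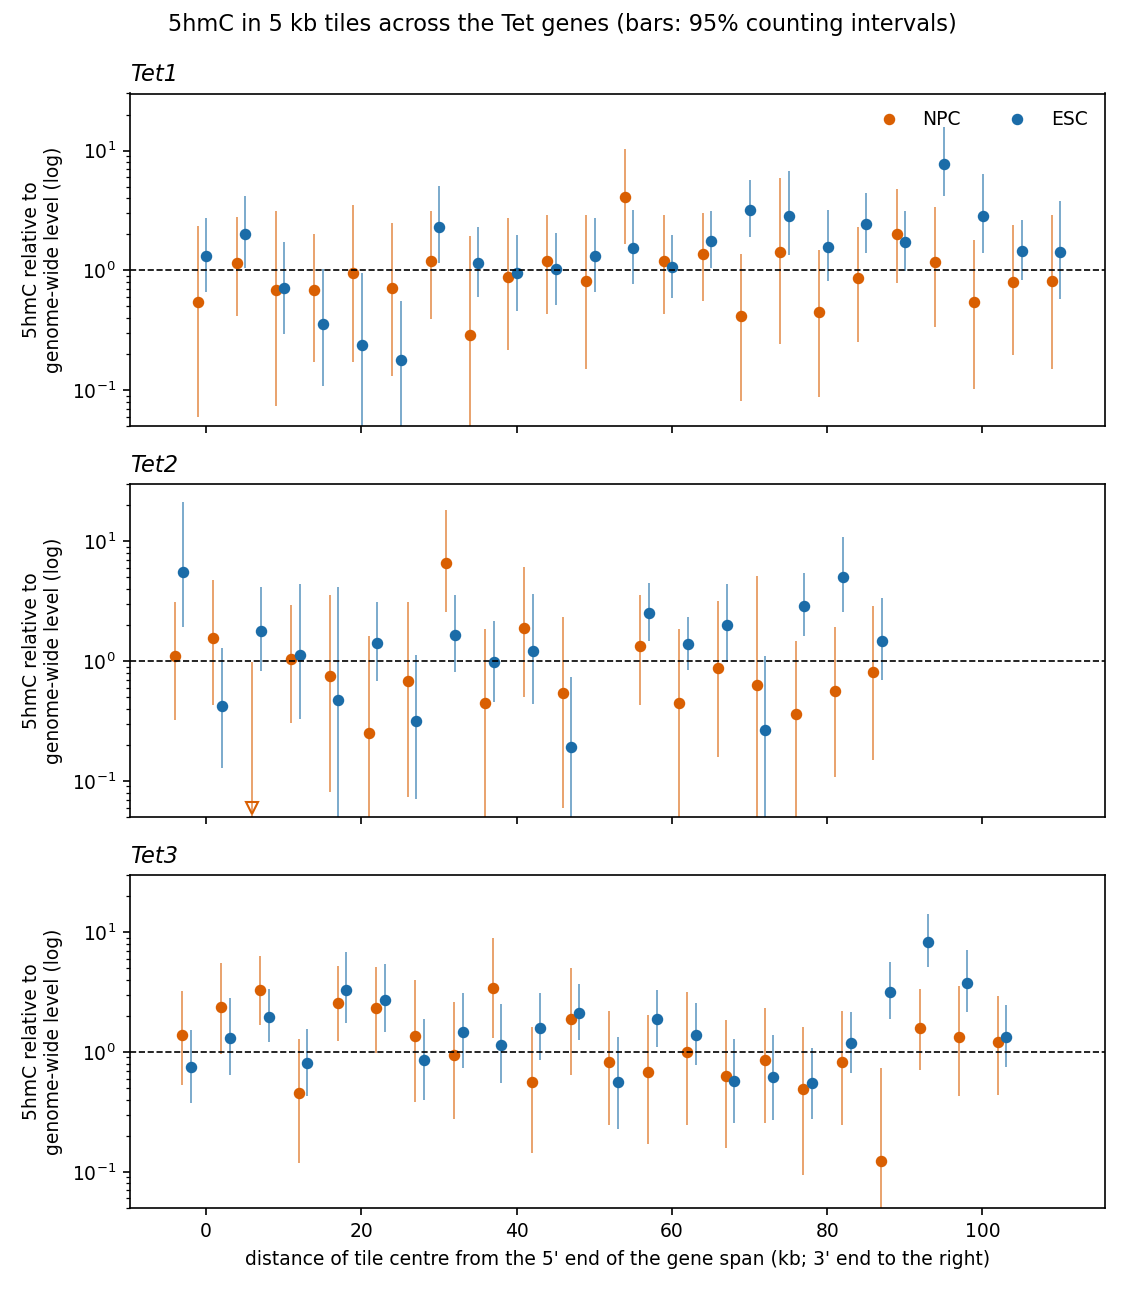
5hmC relative to the genome-wide level (y axis, log scale, bars cut at 0.05) in 5 kb tiles of Tet1, Tet2 and Tet3 for NPC (orange) and ESC (blue), against the distance of the tile from the 5′ end of the span (x axis, kb). Bars are 95% counting intervals and the open triangle marks a tile with no NPC 5hmC read; ESC peak at the 3′ end, at 7.68, 5.04 and 8.29 times the average except for a 5.50-fold tile upstream of Tet2 with 4 ESC input reads, while NPC-enriched tiles of Tet3 lie near the 5′ end.

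Across tiles of a gene, the log2 levels of NPC and ESC ran together weakly or not at all. Pearson's r was 0.12 over 23 tiles of Tet1, -0.042 over 18 of Tet2 and 0.22 over 22 of Tet3, beside 0.26 over all tiles of the genome. The tiles share libraries and local input depth. Kept Tet tiles averaged 5.14 5hmC reads in NPC, against 35.6 in ESC, so that NPC levels of single tiles carry wide counting error.

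The second comparison set each gene beside its surroundings, 500 kb on each side, and here the 3 genes differed. Tet2 stood out from its neighbourhood in ESC. In NPC it had 1.18 times the 5hmC of its surroundings (0.881 to 1.58), and in ESC 2.30 times (1.91 to 2.76). The surroundings of Tet2 themselves stood at 0.813 of the NPC average (0.736 to 0.896) and 0.725 of the ESC average (0.680 to 0.773). In ESC they were thus below the average but above the median 100 kb window, which lay at 0.594. Their pooled NPC/ESC ratio was 0.211 (0.188 to 0.237), and the ratio of Tet2 was 0.514 times that (0.365 to 0.725). The pooled value joined unlike sides. Their ratio was above the genome-wide 0.188 on the 5′ side, at 0.335, and below it on the 3′ side, at 0.154, which is nearer the 0.108 of Tet2.

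Tet1 was as rich as the region in which it lies. Its level was 0.961 times that of its surroundings in NPC (0.767 to 1.20) and 0.998 times in ESC (0.872 to 1.14). The surroundings of Tet1 had 1.77 times the ESC average (1.69 to 1.85), and there NPC over ESC gave 0.11 (0.101 to 0.12). The ratio of the gene was 0.962 times that of its surroundings (0.740 to 1.25). Tet3 lay between the other two in ESC. It had 1.18 times the 5hmC of its surroundings in NPC (0.970 to 1.44) and 1.42 times in ESC (1.25 to 1.61), and its NPC/ESC ratio was 0.831 times theirs (0.657 to 1.05).

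The ESC level over the surroundings was also taken with part 5 left out and the 5 kb flanks kept. Without part 5, the ESC level over the surroundings was 1.98 for Tet2 (1.61 to 2.43), 0.807 for Tet1 (0.693 to 0.941) and 1.1 for Tet3 (0.948 to 1.27). Part 5 was left out after it had been seen to be highest in ESC, and nothing was left out of the surroundings. A fall was thus fixed in advance, and the values of Tet1 and Tet3 say nothing further about these genes. The level at Tet2 stayed above its surroundings. What was left included the 5 kb flanks of Tet2, at 2.84 (upstream) and 1.95 times (downstream) the ESC average. Parts 1 to 4 of Tet2 stood at 1.09, 1.09, 0.910 and 1.83 times. On the 5′ side of Tet2, which holds Cxxc4 as the next protein-coding gene, the surroundings were at 0.887 of the average in NPC and 0.497 in ESC. On its 3′ side, toward Ppa2, they were at 0.753 in NPC and 0.917 in ESC.

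Reads of both strands contributed evenly. The plus strand held between 49.2% and 52.8% of the NPC 5hmC reads and between 45.5% and 52.7% of the ESC 5hmC reads of the 3 genes. No position within the genes held more than 2 reads in any library, and such copies were counted as 1 read here.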

How the data were processed

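Positions of 5hmC-bound and input reads were analysed in 4 libraries, NPC and ESC with 1 each. Per the labels' protocols, DNA sonicated to under 500 bp was barcoded, about 4 µg of each cell type was mixed, 10% was kept as input, and the rest was bound with 4 µg of antibody and amplified for 10 to 12 cycles. Bowtie 0.12.7 and mm9 are named in the submitters' processing notes. The deposited files have no header and hold, for each position and strand, an interval (of 350 bp in all but 2 to 48 lines per file) and a whole-number read count that the authors left unscaled, as far as the values show. Handling of reads with several matches is not given in the sources used here.

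Distinct reads (1 per line) were placed by their midpoint, using Python 3.11.15, numpy 2.4.6, pandas 2.3.3, scipy 1.17.1 and matplotlib 3.10.9. Gene spans were those given with the choice of genes, widened by 5 kb, and tiles were counted where their centre fell inside. Tiles with fewer than 5 summed input reads, or more than 5 times the median of 23, were left out. Enrichment used each library scaled to its distinct reads and a pseudocount of 0.5 reads. Tile counts, correlations and percentiles use this pseudocount, and printed levels and ratios do not. The 100 kb windows had at least 89.4 and at most 2235 summed input reads. Intervals are exact (conditional for odds ratios, Clopper-Pearson for 2 counts), while counts above 2000 and quotients of ratios used a normal approximation to the log ratio.

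Named tiles had at least 5 reads in each input: the highest NPC and ESC level, the highest and lowest NPC/ESC ratio, and the tile at the 5′ end of the span. The genes, parts and rules were chosen with earlier results of these data known. Genes of the same pathway and genes of like pattern were not analysed here, since no mm9 annotation was used.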

Additional observations from a re-analysis of the deposited data

Results flagged for a closer look

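A tile near the 3′ end of Tet3, on chromosome 6 from 83320001 to 83325000, lay on opposite sides of the average in the cell types: at 0.122 of the genome-wide level in NPC (0.00299 to 0.732) and at 3.20 in ESC (1.90 to 5.66), with an NPC/ESC ratio of 0.00717. With 1 library per group this difference was not tested, and the tile had been picked as the lowest of 22. No whole gene and none of its parts lay on opposite sides beyond counting error.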

How the results depend on the processing

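The NPC/ESC ratio of each gene stayed within its interval in 24 of 27 alternatives, among them all deposited reads, single strands, summed inputs, equal depth and the span without flanks. The exceptions came from subtracting a background of 0.144 5hmC reads per input read, the NPC level of the tiles poorest in ESC 5hmC, from both cell types. By construction it lowered the ratios, to 0.0505 for Tet1, 0.0498 for Tet2 and 0.0727 for Tet3. The genome-wide ratio, which it lowers too, was not computed this way. For ESC-enriched tiles, a 3-fold rule left 2 in Tet1 and 2 in Tet2 (4.05% of all tiles), and equal depth left 1 in Tet2 (10.1%). For NPC-enriched tiles, a minimum of 20 reads left 0 in each gene (1.04% of all tiles), no minimum gave 2 in Tet1 (14%), a grid shifted by 2500 bp gave 2 in Tet1 and 3 in Tet3 (5.78%), and a 3-fold rule gave 2 in Tet3 (3.02%). The alternatives for the parts and the surroundings were added after seeing the data. Without its richest tile, the ESC level of part 5 over parts 1 to 4 was 1.62 in Tet1 and 1.42 in Tet3, a fall fixed in advance by the choice of tile. With minus-strand reads alone this quotient was 1.77 in Tet2 (0.972 to 3.33). The ESC level over the surroundings was 0.807 for Tet1 and 1.1 for Tet3 without part 5, and 1.17 for Tet3 without its richest tile. These falls were fixed in advance too. With surroundings of 250 kb or 1000 kb that of Tet2 was 1.99 or 2.53. No paired analysis was possible because each group held 1 library. The NPC 5hmC library, with 5.14 reads per Tet tile, limits what can be seen in NPC.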
